A study of Rattus norvegicus with 6 samples.

Results

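The genes described here are 10 members of the Hippo signaling pathway and its transcriptional output, measured in kidney tissue of Han:SPRD rats. They were Stk3, Sav1 and Lats1 of the kinase cascade, the coactivators Yap1 and Wwtr1, the DNA-binding factor Tead1, and the target genes Ccn1, Ccn2, Ankrd1 and Amotl2. The members were listed by name, and every probe set annotated to that name, or to an older symbol of the same gene, was taken. Of the 14217 genes named on the array, 9 of the 10 members had at least 1 probe set, 13 probe sets in all. No probe set was named for Yap1, whose transcript was not analysed here. A gene entered the statistical test when its mean signal over the arrays reached 77.8 (geometric mean, arbitrary units). That threshold left 10645 genes, 7 of them members, while Ccn1 and Ankrd1 were too dim.

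The 3 Cy/+ samples came from male rats heterozygous for the Cy mutation in Anks6, a model of slowly progressive polycystic kidney disease, and the 3 +/+ samples from male wild-type rats. The labels give an age of 10 weeks for all 6 samples, whereas the methods describe kidneys at 5 weeks for the arrays, and no treatment is given for either genotype. Each sample was hybridized to 1 array. No source states that the 3 samples of a genotype came from separate animals, so each p-value speaks only for the variation among these 6 arrays, part of which may be technical. The RNA came from kidney tissue, and whether the whole organ or a part of it was extracted is not stated. Fewer cells of a type cannot be told apart from less RNA per cell.

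The Hippo pathway is a kinase cascade that restrains organ growth. Stk3 and its paralog Stk4, held by the scaffold Sav1, activate the kinases Lats1 and Lats2, which phosphorylate the coactivators YAP and TAZ and keep them out of the nucleus. Coactivators that reach the nucleus bind TEAD factors at the promoters and enhancers of growth, matrix and cytoskeletal genes, and in kidney tubules the pathway is known for its response to injury, stretch and cyst growth. Much of this control acts through phosphorylation and protein location, which an array of transcripts does not measure.

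Signals ranged from 10.65 to 32240, and the array medians from 120.1 to 128.1. Correlations of log2 signals were 0.997 among +/+ arrays, 0.982 to 0.990 among Cy/+ arrays and 0.907 to 0.940 across genotypes. RNA and labeling controls moved with genotype. The ratio of the 3-prime to the 5-prime probe set of beta-actin was 1.504 to 1.516 on +/+ arrays and 3.05 to 3.53 on Cy/+ arrays, and that of Gapdh was 1.15 to 1.22 and 1.74 to 1.92. Each gave an exact two-sided permutation p of 0.1, the smallest that 3 against 3 arrays allow. All 18 hybridization controls were brighter on every Cy/+ array, by a median of 1.83-fold, and all 24 poly-A controls by a median of 3.82-fold. Their part in the results below was not tested.

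Among the 7 members tested, 3 transcripts were higher in Cy/+ kidneys (Tead1, Stk3 and Ccn2), 2 were lower (Wwtr1 and Sav1), and 2 did not pass the test (Lats1 and Amotl2). Of all 10645 genes tested, 37.4% were higher and 29.3% were lower at an adjusted p under 0.05, so that a call in either direction was common in this comparison. The signals of the genotypes did not overlap for 5 of the 7 members, against 74.6% of all genes tested. The median log2 fold change, Cy/+ over +/+, was 0.41 over the 7 members and 0.09 over all genes tested. Both shares of the members lie near those of the whole array, and the description below therefore rests on single genes.

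**Figure D1:**
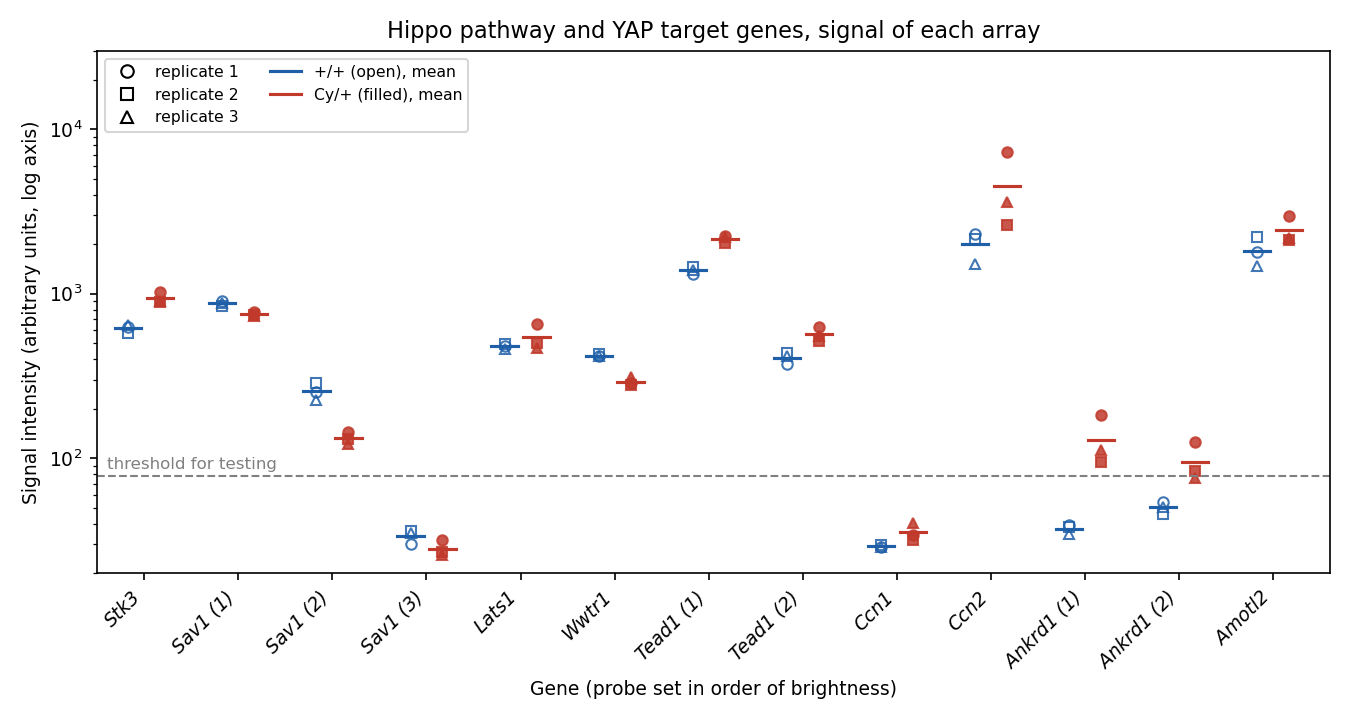
Signal intensity (arbitrary units, log axis) of the 13 member probe sets on each of the 6 arrays, with open blue symbols for +/+, filled red symbols for Cy/+, a symbol shape for each replicate and a line at the mean of 3 arrays. The dashed line is the signal of 77.8 above which a probe set was tested. Stk3, Wwtr1 and Tead1 separate by genotype with little spread, while Ccn2 ranges from 2620 to 7265 within Cy/+.

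Stk3, the kinase at the head of the cascade, gave signals of 627.2, 579.8 and 646.1 on the +/+ arrays and 1018, 890.8 and 896.7 on the Cy/+ arrays. Every Cy/+ array was above every +/+ array. The Cy/+ level was 1.51-fold higher, with a log2 fold change of 0.60 ± 0.09 (SE, n = 3 per genotype; limma, adjusted p = 0.00101). Sav1, the scaffold that couples Stk3 to Lats1, moved in the other direction. Its brightest probe set gave 905.0, 839.5 and 872.2 on the +/+ arrays and 769.5, 742.1 and 732.2 on the Cy/+ arrays, again without overlap. That difference was small, a log2 fold change of -0.22 ± 0.08 (limma, adjusted p = 0.0334), and did not pass the threshold when any 1 array other than Cy/+ replicate 1 was left out (adjusted p of 0.0674 to 0.129). A second Sav1 probe set, at 253.9, 285.2 and 225.5 in +/+ and 143.4, 130.0 and 122.8 in Cy/+, was 1.92-fold lower (log2 fold change -0.94 ± 0.12; limma, adjusted p = 0.000416). Both tested probe sets of Sav1 were thus lower in Cy/+, by unlike amounts, and the remaining probe set was too dim to test, at 29.98 to 36.33 in +/+ and 25.8 to 31.82 in Cy/+.

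Lats1, the kinase that phosphorylates YAP and TAZ, did not differ detectably between the genotypes. The +/+ signals were 480.1, 498.0 and 463.0, and the Cy/+ signals were 658.0, 504.4 and 467.3. Cy/+ replicate 1 lay well above the +/+ range, Cy/+ replicate 2 just above it and Cy/+ replicate 3 within it. The log2 fold change was 0.16 ± 0.14, with a 95% interval from -0.16 to 0.48 (limma, adjusted p = 0.317). The interval leaves room for a small fall or a larger rise.

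Wwtr1, which encodes the coactivator TAZ, was lower in Cy/+ kidneys. Its signals were 415.7, 431.8 and 415.4 on the +/+ arrays and 284.6, 279.6 and 313.2 on the Cy/+ arrays. The genotypes were well separated, and the spread within each was narrow. Cy/+ was 1.44-fold lower, with a log2 fold change of -0.53 ± 0.09 (limma, adjusted p = 0.00138), and leaving out any 1 array kept the difference between -0.58 and -0.50.

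Tead1, a factor through which YAP and TAZ reach DNA, was higher in Cy/+ kidneys. Its brighter probe set read 1322, 1445 and 1399 in +/+ and 2231, 2030 and 2207 in Cy/+, without overlap. The ratio was 1.55-fold (log2 fold change 0.63 ± 0.08; limma, adjusted p = 0.000379). The second probe set gave 372.1, 436.5 and 415.6 in +/+ and 628.0, 517.1 and 552.2 in Cy/+, also without overlap, with a log2 fold change of 0.47 ± 0.11 (limma, adjusted p = 0.00693). Tead1 therefore differed from Wwtr1, its coactivator, in direction, and its probe sets pointed the same way.

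**Figure D2:**
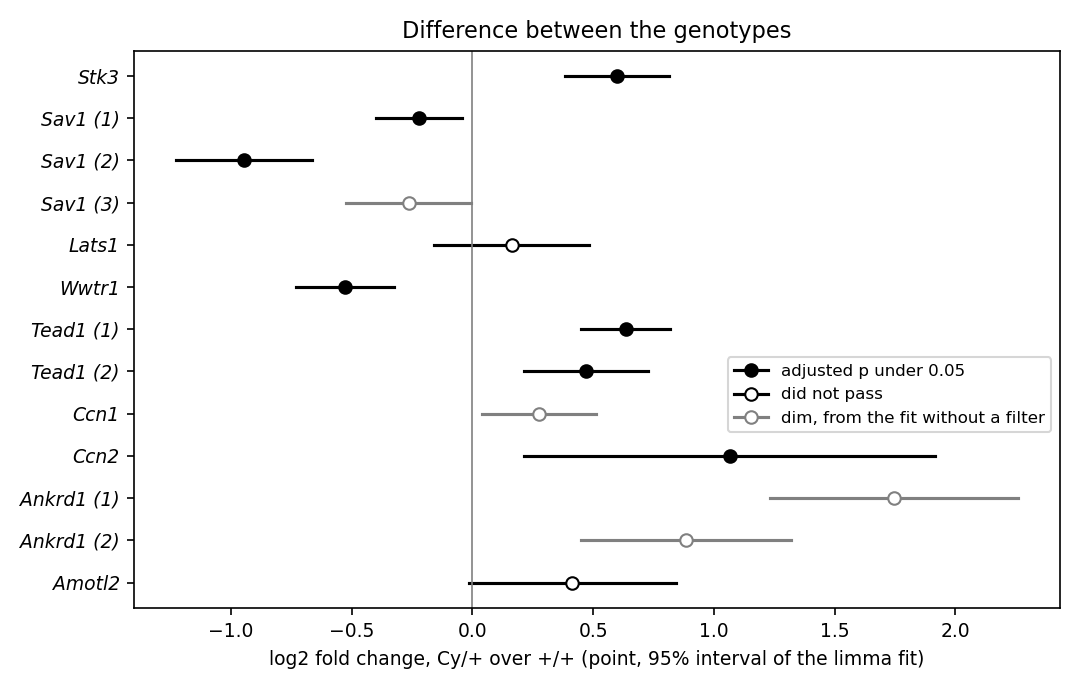
Log2 fold change (Cy/+ over +/+) of each member probe set with its 95% interval from the limma fit. Filled points have an adjusted p under 0.05, open black points did not pass, and grey points are dim probe sets from the fit without a filter. Tead1, Stk3 and Ccn2 lie above 0, Wwtr1 and Sav1 below it, and the intervals of Lats1 and Amotl2 include 0.

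The 4 targets are genes whose transcription rises when YAP or TAZ is bound to TEAD factors. Because that binding is at a short motif, the promoters of the targets are shown. RefSeq promoters of the rat assembly GRCr8, covering 250 bases before to 50 bases after the annotated start, were listed for 7 of the 10 members, and Tead1, Stk3 and Ankrd1 were not among the entries. The letters GGAATG, the core of the TEAD motif, were searched on both strands and are in capitals. They read CATTCC where the match is on the opposite strand.
Ccn2: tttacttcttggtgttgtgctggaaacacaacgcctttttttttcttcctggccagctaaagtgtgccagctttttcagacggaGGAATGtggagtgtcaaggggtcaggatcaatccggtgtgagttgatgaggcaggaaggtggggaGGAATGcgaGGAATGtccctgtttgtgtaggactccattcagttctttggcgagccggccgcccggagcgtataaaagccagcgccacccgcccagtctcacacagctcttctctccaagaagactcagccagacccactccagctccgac
Ccn1: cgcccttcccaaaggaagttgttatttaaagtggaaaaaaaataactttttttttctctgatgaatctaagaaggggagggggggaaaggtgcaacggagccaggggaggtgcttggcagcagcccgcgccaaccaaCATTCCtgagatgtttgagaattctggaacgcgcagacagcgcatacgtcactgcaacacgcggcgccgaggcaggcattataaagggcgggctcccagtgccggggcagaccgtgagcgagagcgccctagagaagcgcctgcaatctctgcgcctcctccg
Amotl2: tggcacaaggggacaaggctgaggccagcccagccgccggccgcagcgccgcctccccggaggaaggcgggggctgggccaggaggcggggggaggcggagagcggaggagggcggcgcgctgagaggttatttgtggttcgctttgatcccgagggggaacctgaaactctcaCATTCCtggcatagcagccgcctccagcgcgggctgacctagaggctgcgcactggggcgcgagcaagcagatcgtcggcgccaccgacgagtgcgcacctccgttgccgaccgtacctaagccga
These windows are chr1:22624565-22624864 on the minus strand for Ccn2, chr2:237225640-237225939 on the minus strand for Ccn1, and chr8:112182376-112182675 on the plus strand for Amotl2. The Ccn2 window held 3 matches, all on the strand of transcription, beginning 166, 101 and 92 bases before the start. The Ccn1 window held 1 match, beginning 113 bases before the start, and the Amotl2 window 1 match, beginning 76 bases before it. Of all 33465 promoters of this length in the table, 14.2% held at least 1 match, 1.24% at least 2 and 0.0956% (32 promoters) at least 3. The Sav1 and Yap1 windows also held 1 match each, at 167 and 116 bases before the start, and the Lats1 and Wwtr1 windows held none. The AP-1 motif TGANTCA, present in 7.33% of all windows, and the CArG motif of serum response factor, present in 1.64%, were found in none of the 7. A match is a run of letters and says nothing of binding in these kidneys.

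Ccn2, which encodes the matrix-associated protein known as connective tissue growth factor, was higher in Cy/+ kidneys and was the most variable member. The +/+ signals were 2307, 2162 and 1512, and the Cy/+ signals were 7265, 2620 and 3628. The genotypes did not overlap, but Cy/+ replicate 2 lay only a little above the highest +/+ array, and Cy/+ replicate 1 was 2.33 times the mean of the other Cy/+ arrays. The log2 fold change was 1.06 ± 0.36, with a 95% interval from 0.21 to 1.92 (2.09-fold; limma, adjusted p = 0.0334). Without Cy/+ replicate 1 it was 0.65 (limma, adjusted p = 0.0284), and without +/+ replicate 3 it was 0.88 and did not pass the threshold (limma, adjusted p = 0.114). The call was also lost without Cy/+ replicate 3, +/+ replicate 1 or +/+ replicate 2, at adjusted p of 0.0553 to 0.0641, and under the unmoderated test named in the methods (adjusted p = 0.120). Ccn2 thus carries the largest difference among the tested members and one of the least secure.

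Ccn1, a secreted relative of Ccn2, was near the bottom of the signal range in every sample. Signals were 28.79, 29.74 and 28.67 in +/+ and 34.01, 31.66 and 40.44 in Cy/+. The 3 Cy/+ values were the higher ones, but all 6 lay below the threshold for testing. When the filter was left out, the log2 fold change was 0.28 (limma, adjusted p = 0.0516).

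Ankrd1, a nuclear and sarcomeric ankyrin repeat protein, was dim in +/+ kidneys and brighter in Cy/+. Its brighter probe set gave 39.03, 38.24 and 34.48 in +/+ and 182.1, 95.45 and 111.6 in Cy/+. All 3 Cy/+ arrays were above the signal threshold of 77.8 and all 3 +/+ arrays were well below it, with the Cy/+ mean 1.67-fold over that threshold. The second probe set gave 54.02, 45.88 and 50.75 in +/+ and 125.3, 83.46 and 75.63 in Cy/+. Neither entered the filtered test, because the mean over all 6 arrays was too low. Without the filter, the log2 fold changes were 1.75 ± 0.22 and 0.88 (limma, adjusted p = 0.000398 and 0.00516). As with Ccn2, Cy/+ replicate 1 was the brightest array for both probe sets.

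Amotl2, an angiomotin family protein that binds YAP and is also a target of it, did not pass the test. The +/+ signals were 1784, 2204 and 1478, and the Cy/+ signals were 2961, 2134 and 2174. The ranges overlapped, since +/+ replicate 2 was above the lower pair of Cy/+ arrays. The log2 fold change was 0.41 ± 0.18 (limma, adjusted p = 0.0790). It passed the threshold after quantile normalization (0.52; limma, adjusted p = 0.0296) and without +/+ replicate 2 (0.56; limma, adjusted p = 0.0368), so the call for Amotl2 rests on the scaling and on that array.

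**Figure D3:**
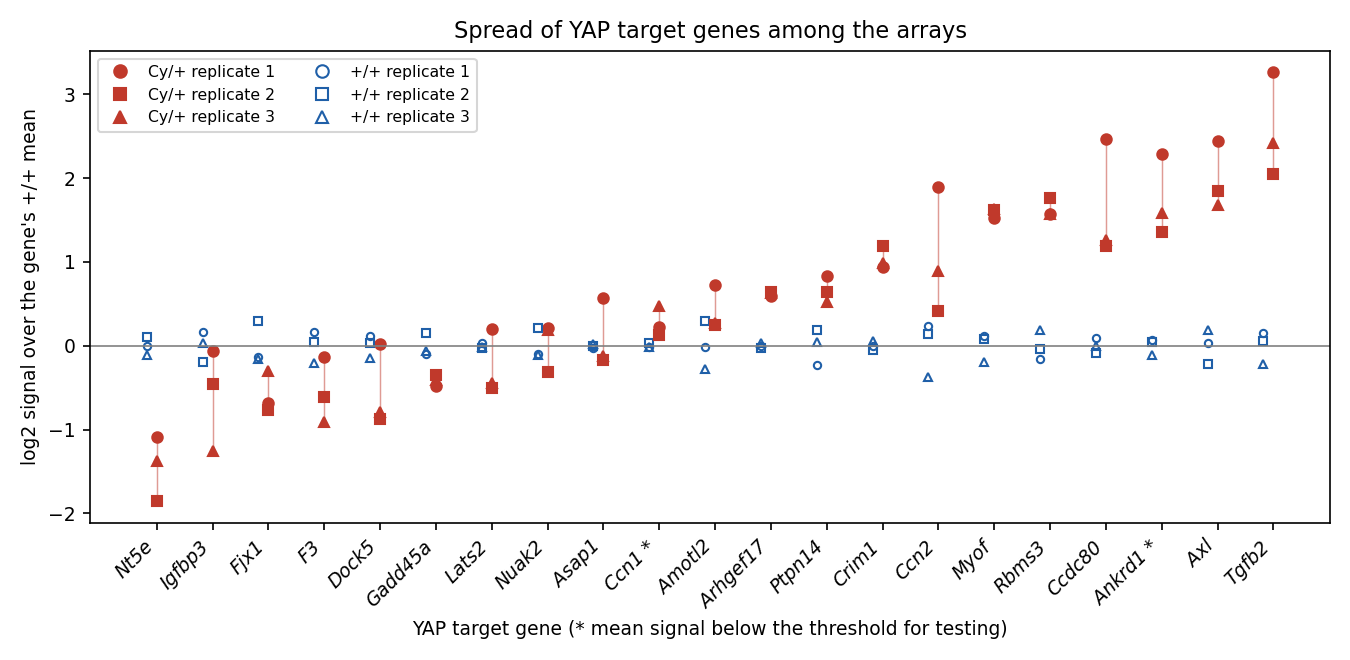
Log2 signal of the 4 target members and of other YAP target genes on each array relative to the gene's own +/+ mean, with a symbol for each replicate. Cy/+ replicate 1 sits highest for Ccn2, Ankrd1 and Amotl2. The +/+ arrays spread from -0.38 to 0.23 for Ccn2 and from -0.28 to 0.29 for Amotl2.

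Cy/+ replicate 1 was the highest of the 3 Cy/+ arrays for 6 of the 7 tested members, the exception being Wwtr1. Over all tested genes the same array was highest for 4416 of 10645 (41.5%). The Cy/+ arrays also differed from each other in markers of cell types, and not replicate 1 alone. Cy/+ replicate 2 was the highest Cy/+ array for all 8 collecting duct markers. Its proximal tubule sum was 8930, against 20865 and 19579 in Cy/+ replicates 1 and 3. The summed signal of 9 fibroblast and myofibroblast markers, of which 6 of the 8 tested were higher in Cy/+ and none lower, was 7932 to 9212 in +/+ and 38007, 19552 and 20717 in Cy/+ replicates 1, 2 and 3. Replicate 1 was the highest Cy/+ array for all 8 tested markers of that list. The sum of 8 macrophage markers, of which all 7 tested were higher, was 6424 to 7416 in +/+ and 18087, 13743 and 12495 in Cy/+. The share of these cells in the values of Ccn2 and Ankrd1 was not tested.

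The labelled tissue was borne out by its markers, and its makeup differed between genotypes. The sum of 10 proximal tubule markers was 79779 to 84621 in +/+ and 8930 to 20865 in Cy/+, and all 10 were lower. All 7 tubular injury markers were higher, with sums of 7075 to 8920 in +/+ and 52603 to 60350 in Cy/+. The collecting duct sum (8 markers, 1 of them, Gata3, higher) was 10474 to 12056 in +/+ and 8755, 25067 and 17879 in Cy/+. For 7 endothelial markers, 5 of them lower, the sums were 6604 to 7086 and 3047 to 4132. For 5 podocyte markers, 4 lower and 1 higher, they were 3436 to 3840 and 2679 to 4071. The higher one, Synpo, gave 1902 to 2863 in Cy/+ at its brightest probe set, the one summed. Its dimmer probe sets were lower, with log2 fold changes of -0.81 and -1.22 (limma, adjusted p = 0.00118 and 0.00129). The part of these changes in the differences of the members was not tested.

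**Figure D4:**
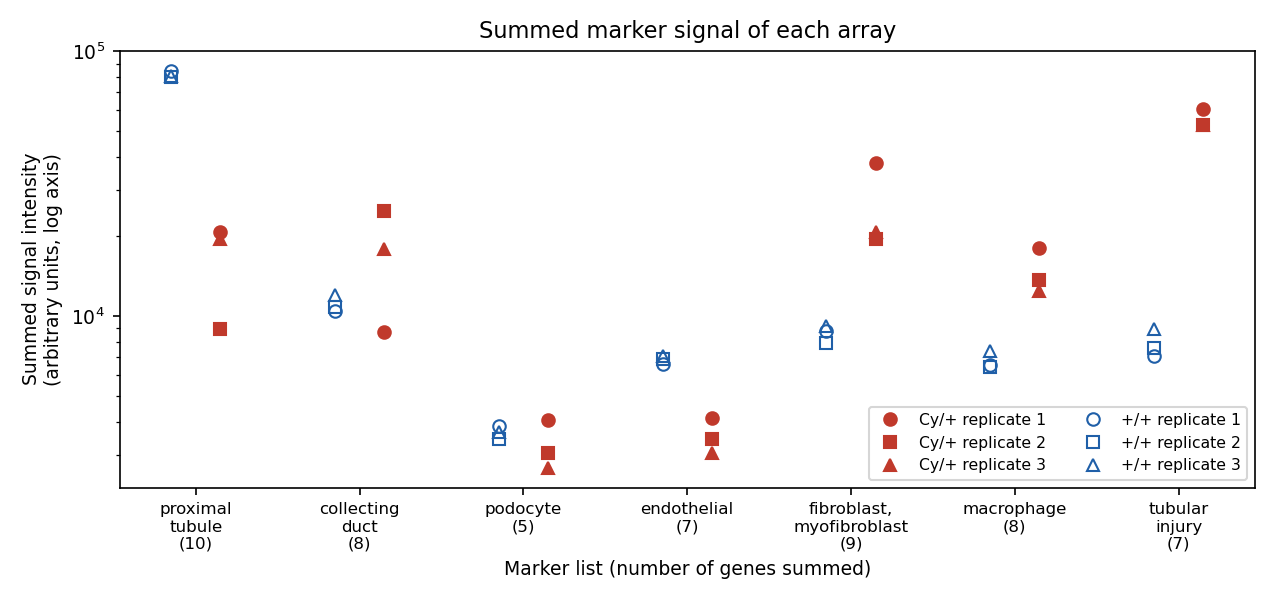
Summed signal (arbitrary units, log axis) of each cell type or injury marker list on each array, open blue for +/+ and filled red for Cy/+. Proximal tubule and endothelial sums are lower on every Cy/+ array, and fibroblast, macrophage and injury sums are higher, with Cy/+ replicate 1 highest for fibroblast and macrophage markers.

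Other genes of the pathway were read from the same fit. Of 32 listed, 31 had a probe set and 29 were tested. Of these, 17 were higher in Cy/+ and 3 lower, beside 37.4% and 29.3% of all genes tested, and 9 were not past the threshold. Their median log2 fold change was 0.47, beside 0.09 over all genes. The 17 include Vgll3, which reached the test only through its Cy/+ arrays, and Ajuba and Limd1, whose dimmer probe sets were called lower. When the probe sets of each gene were averaged, the count of higher genes was 14 of 29. In the core, Stk4, the paralog of Stk3, was 1.85-fold higher (431.9, 422.9 and 489.9 in +/+ against 784.3, 931.3 and 777.7 in Cy/+; limma, adjusted p = 0.000349). Both upstream kinases thus had higher transcripts. They did not overlap between genotypes, and neither did 74.6% of all genes tested. Lats2 did not pass the test, with signals of 1960, 1873 and 1893 in +/+ and 2184, 1349 and 1405 in Cy/+ (log2 fold change -0.25; limma, adjusted p = 0.252). As with Lats1, Cy/+ replicate 1 was the highest of the Cy/+ arrays. Without that array Lats2 was lower in Cy/+ (-0.47; limma, adjusted p = 0.0009), and likewise with array quality weights (-0.38; limma, adjusted p = 0.0160). Mob1b was too dim to test, and Mob1a was annotated only jointly with other genes.

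Upstream regulators included 22 tested genes, 12 higher, 2 lower and 8 not past the threshold, and a median log2 fold change of 0.45. Over all genes tested, 37.4% were higher, 29.3% were lower and the median was 0.09. Frmd6, a FERM domain protein at the cell cortex that activates the cascade, had signals of 376.8, 330.8 and 349.4 in +/+ and 1654, 2170 and 1714 in Cy/+ and was 5.21-fold higher (limma, adjusted p = 2.35e-05). Map4k4, a kinase that can act on LATS in parallel to Stk3 and Stk4, was 4.05-fold higher (limma, adjusted p = 2.92e-05), with 439.7, 495.5 and 516.2 in +/+ and 2025, 2181 and 1694 in Cy/+. Amotl1, a relative of Amotl2, was 2.43-fold higher at its brightest probe set (limma, adjusted p = 0.000415), with a log2 fold change of 0.67 when a dim probe set was averaged in. On the lower side, Taok1, a kinase that activates Stk3 and Stk4, had a log2 fold change of -0.54 (limma, adjusted p = 0.00779). Wwc2, of the KIBRA family of scaffolds, had -0.43 at its brightest probe set (limma, adjusted p = 0.0246) and -1.23 and -1.44 at the dimmer ones, so that all 3 of its probe sets were lower. At the brightest one the call was lost in 5 of 18 alternatives, without Cy/+ replicate 2, +/+ replicate 1 or +/+ replicate 2 among them (limma, adjusted p of 0.0524 to 0.0900).

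Transcripts of Tead1's relatives and of the vestigial-like proteins, which share the TEAD surface used by YAP and TAZ, mostly went the way of Tead1. Of 6 listed, 5 were tested, and 4 were higher and 1 lower, beside 37.4% and 29.3% of all genes tested. Vgll3, one of the 4, read 45.32, 52.54 and 47.12 in +/+ and 208.0, 184.3 and 139.7 in Cy/+. It reached the test only through its Cy/+ arrays, whose mean was 2.28-fold over the threshold of 77.8, since all its +/+ signals lay below that, and its count as higher follows in part from the filter. Tead3 was 2.19-fold higher at its brighter probe set (limma, adjusted p = 0.00019), while its dimmer one gave a log2 fold change of 0.08 (limma, adjusted p = 0.518). Vgll4, known as a competitor of YAP, was 1.80-fold higher (limma, adjusted p = 0.000439). Tead2 was also higher, at a log2 fold change of 0.47 (limma, adjusted p = 0.0231), but lost its call in 6 of 18 alternatives, quantile normalization (limma, adjusted p = 0.0780) and the leaving out of Cy/+ replicate 2, +/+ replicate 1 or +/+ replicate 2 (0.0638 to 0.0785) among them. Tead4 was the exception, with 197.8, 165.5 and 194.9 in +/+ and 124.4, 112.0 and 140.8 in Cy/+ (log2 fold change -0.57; limma, adjusted p = 0.00546), although its second probe set gave 0.15 (limma, adjusted p = 0.574). Vgll1 was too dim to test.

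**Figure D5:**
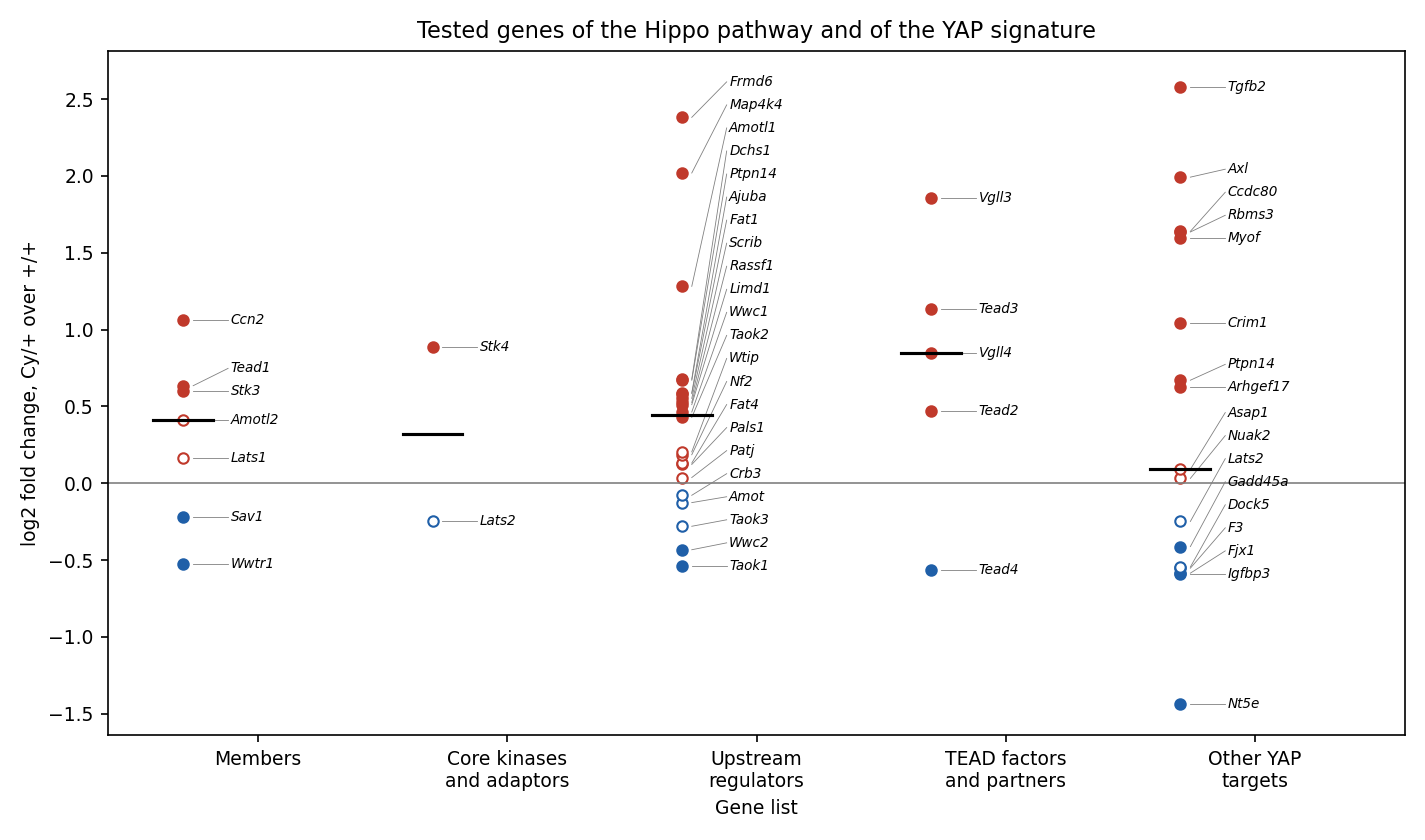
Log2 fold change (Cy/+ over +/+) of the tested members, other Hippo genes and other YAP targets, 1 point per gene, filled where the adjusted p is under 0.05, red for higher and blue for lower, with a black bar at each list's median. Lats2 and Ptpn14 appear in both the Hippo and the target list. The other YAP targets spread on both sides of 0 around a median of 0.09.

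The remaining YAP targets were those of a signature of YAP and TAZ activity in cancers, without the 4 members that belong to it. Of 18 genes, 17 were tested, and Foxf2 had no probe set. In Cy/+ kidneys 8 were higher and 4 lower, beside 37.4% and 29.3% of all genes tested, and 5 did not reach the threshold. Their median log2 fold change of 0.09 equals, to that precision, the median over all genes tested. The target genes thus did not move one way as a list. Of the 5 that did not reach the threshold, Igfbp3 had -0.59 at its brightest probe set (limma, adjusted p = 0.102). Its second probe set was lower, at -1.38 (limma, adjusted p = 0.00824). Myof, a membrane repair protein, had signals of 598.9, 585.8 and 486.6 in +/+ and 1591, 1711 and 1723 in Cy/+ and was 3.02-fold higher (limma, adjusted p = 3.65e-05). Rbms3, an RNA-binding protein, was 3.11-fold higher at its brightest probe set (limma, adjusted p = 4.36e-05) and 1.71-fold higher at the other tested one (limma, adjusted p = 0.000262). Crim1, a membrane protein that binds growth factors of the BMP family, was 2.06-fold higher (limma, adjusted p = 8.64e-05). For these 3 genes Cy/+ replicate 1 was not an outlying array.

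Among the other higher targets, Ccdc80, Tgfb2 and Axl were picked after their values were seen. Ccdc80, a matrix protein, gave 841.1, 746.8 and 789.0 in +/+ and 4364, 1806 and 1899 in Cy/+ (log2 fold change 1.64; limma, adjusted p = 0.00315). Tgfb2, a secreted growth factor of fibrosis, gave 127.7, 119.7 and 98.63 in +/+ and 1101, 473.4 and 612.6 in Cy/+ (2.58; limma, adjusted p = 0.000267), while its second probe set did not pass (0.46; limma, adjusted p = 0.0823). Axl, a receptor tyrosine kinase, gave 794.3, 664.7 and 878.6 in +/+ and 4203, 2793 and 2485 in Cy/+ (1.99; limma, adjusted p = 0.000177). As with Ccn2, Cy/+ replicate 1 was the highest Cy/+ array for all 3, but Axl ordered the other Cy/+ arrays unlike Ccn2. Since the 3 were picked with their values known, their likeness to Ccn2 is no evidence of a shared pattern. Cy/+ replicate 1 was the highest Cy/+ array for 11 of the 17 tested targets, beside 41.5% of all genes tested.

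The 4 targets that were lower included Nt5e, the ectonucleotidase that makes adenosine, at 1786, 1923 and 1661 in +/+ and 839.2, 494.5 and 690.4 in Cy/+ (2.71-fold lower; limma, adjusted p = 0.000467). Gadd45a, a stress-response gene, had a log2 fold change of -0.41 (limma, adjusted p = 0.00582), and Fjx1, of the Fat and Dachsous branch, one of -0.59 (limma, adjusted p = 0.0192). F3, tissue factor, had -0.55 (limma, adjusted p = 0.0433) with genotypes that overlapped. The calls for Nt5e and Gadd45a were the same under all 18 alternatives. F3 lost its call in 6 of 18, when any array other than Cy/+ replicate 1 was left out or the methods' test was used (limma, adjusted p of 0.0518 to 0.134 over the arrays left out). Fjx1 lost it in 3 of 17, without Cy/+ replicate 2 or +/+ replicate 2 (limma, adjusted p = 0.0540 and 0.0638) and under the methods' test. The lower targets stood beside proximal tubule markers that were all lower, and the part of that change in these values was not tested.

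For 3 members, the genes with the most similar pattern over the 6 arrays were sought, by the root mean square difference of log2 signals after each gene was centred on its +/+ mean. Wwtr1 was followed within 0.016 by Rnf7, within 0.019 by Chrac1 and within 0.027 by Pheta1, and 1535 genes lay within 0.2 of it, so its pattern was a common one. Ccn1 was nearest to Efr3a, Cdk9 and Dhx36 at 0.062, 0.064 and 0.066, with 1734 genes within 0.2. No gene lay within 0.2 of Ccn2. Its nearest were Slc10a2, Dnm3 and Gda, at 0.23, 0.23 and 0.24. Each of these had its highest signal on Cy/+ replicate 1, for example Gda at 2768 against 1258 and 1231 on the other Cy/+ arrays. That follows from their being picked for likeness to Ccn2, which is highest on the same array.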

How the data were processed

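Biotin-labeled cRNA from total kidney RNA was hybridized to rat genome oligonucleotide arrays by the authors, who used GCOS for image analysis. MAS5 is named in the submitters' processing notes. Each deposited value is the linear signal intensity of 1 probe set on 1 array. The exact scaling between arrays is not given in the sources used here, and detection calls were not used. Of 31099 probe sets, 57 control probe sets were left out of the tests. Values were taken to log2 with no pseudocount. Testing was limited to the 18625 probe sets whose mean log2 signal reached the 40th percentile (a signal of 77.8). Symbols of the platform annotation were brought up to date by Entrez ID from a RefSeq table of GRCr8 (20764 probe sets matched). A symbol was single for 20832 probe sets, joint for 436 and missing for 9831, and joint entries named no gene. The brightest probe set represented a gene.

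The 2 genotypes were compared in R 4.3.3 using limma 3.58.1 (lmFit, eBayes with an intensity trend, no covariate), with Benjamini-Hochberg adjustment over all tested probe sets at 0.05. The RNA control ratios were compared with an exact permutation test in scipy 1.17.1. The number of arrays limits the precision. Members and lists were chosen with earlier results of these data known. Named genes were all members, the 3 of smallest adjusted p in each direction of each related list, and the 3 nearest in pattern to Wwtr1, Ccn1 and Ccn2. Lats2, Mob1a, Mob1b, Tead2, Vgll1, Foxf2, Ccdc80, Tgfb2, Axl, F3, Igfbp3, Ajuba, Limd1, Pals1, Patj, Amot, Crb3, Taok3, Gata3 and Synpo were named after their values were seen. Alternatives were other normalizations, filters, floors, pseudocounts, variance models, probe set rules, the methods' test, a replicate block and each array left out.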

Additional observations from a re-analysis of the deposited data

How the results depend on the processing

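Calls for Stk3, Wwtr1 and Tead1 were the same under all 18 alternatives. The count of members lower in Cy/+, 2 here, was 1 without the filter and 1 with the replicate block, and 1 to 2 with each array left out, since the brightest Sav1 probe set lost its call (limma, adjusted p = 0.0517 without the filter and 0.0864 with the replicate block). The count of higher members, 3 here, was 2 to 3 with each array left out. It was 4 with quantile normalization or without the filter, and 2 under the methods' test. Without +/+ replicate 2 the count stayed at 3, but Ccn2 was lost and Amotl2 gained (limma, adjusted p = 0.0641 and 0.0368). Of the other Hippo genes, the 17 higher became 14 when probe sets were averaged and 19 without Cy/+ replicate 1. The 3 lower became 5 without Cy/+ replicate 1, with a range of 2 to 5 over the arrays left out. Of the other YAP targets, the 4 lower became 7 with array quality weights, 6 when probe sets were averaged and 2 under the methods' test. Over the arrays left out they ranged from 2 to 7. The 7 came without Cy/+ replicate 1, and the 2 without Cy/+ replicate 2 or +/+ replicate 2. The 8 higher targets stayed 8 in number. Direction turned in 2 cases, Ajuba at -0.18 when all its probe sets were averaged and Amot at 0.011 without Cy/+ replicate 2, and the cause was not tested. Amot, not called here, was called lower without Cy/+ replicate 1 (-0.32; limma, adjusted p = 0.0156) and when its probe sets were averaged (-0.87; limma, adjusted p = 0.00458). Over the arrays left out it ranged from -0.32 to 0.011. Deviations of same-numbered arrays correlated at 0.15, -0.11 and -0.15. With so few arrays, these values cannot decide whether replicate numbers pair the arrays. Centring each array on its median shifted log2 fold changes by 0.069. With no background reading in the values used, how far Ccn1 lay above background is not known.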

Other observations

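Several pathway genes had probe sets whose calls differed from each other. Opposite calls were seen for Ajuba and Limd1. Ajuba, a LIM protein that restrains LATS, had log2 fold changes (Cy/+ over +/+) of 0.59 at its brightest probe set and -0.95 at the dimmer one (limma, adjusted p = 0.00371 and 0.000885). Its relative Limd1 had 0.51 and -0.42 (limma, adjusted p = 0.00285 and 0.00821). In the polarity complex of the tubule's apical membrane, the brightest probe sets of Pals1, Patj and Crb3 did not pass the test (0.12, 0.04 and -0.08), whereas a dimmer probe set of each was lower. For Pals1 that probe set read 1004 to 1101 in +/+ and 488.7 to 571.2 in Cy/+ (limma, adjusted p = 0.000114), and for Patj and Crb3 the log2 fold changes were -0.41 and -0.59 (limma, adjusted p = 0.00642 and 0.00298). Amot, the founding angiomotin, had -0.13 at its brightest probe set and -1.62 at the dimmer one (limma, adjusted p = 0.53 and 0.000429). Taok3 went the other way, with -0.28 at its brightest probe set and 0.90 at a dimmer one (limma, adjusted p = 0.0587 and 0.00155). The +/+ signals of that dimmer Taok3 probe set, 69.69 to 74.29, lay below the signal threshold of 77.8. The Cy/+ means of the dimmer Limd1 and Amot probe sets, 76.1 and 60.1, lay below the signal threshold of 77.8. Where in each transcript these probe sets lie was not examined, and the 3-prime to 5-prime ratios of the control genes also differed between the genotypes.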
